A study of Mus musculus with 2 samples.

Results

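The TGF-beta, activin and BMP pathway was followed in primary mouse keratinocytes through 38 genes listed by name. They were grouped by role as ligands, antagonists, receptors, SMADs and targets. They are 38 of 18193 genes that had at least 1 probe set with a single gene symbol. On these arrays a transcript is read by sets of short probes, each set giving 1 signal, and the 38 genes had 87 such probe sets in all. The culture from mutant mice was K5Cre+;MED1flox/flox, labelled MED1epi-/- or keratinocyte-specific MED1 null. Its Cre recombinase is driven by the keratin 5 promoter, which is active in basal keratinocytes and not in every cell type of skin. The control culture is titled MED1flox/flox, and its other labels call the mice wild-type, so whether it carried the floxed alleles is stated differently in different labels. Both cultures came from the epidermis of newborn C57BL/6 mice, separated with dispase and trypsin and grown on collagen in CnT07 medium, and the number of mice per culture was not given. MED1 is a subunit of Mediator, which links transcription factors to RNA polymerase II. RNA of each culture was read on a single Affymetrix array, so there was no replicate, no test and no spread between cultures.

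Ligands of the family are secreted dimers that bring together type I and type II receptor kinases. The activated receptors phosphorylate receptor SMADs, which enter the nucleus with Smad4 and act on target genes. TGF-beta and activin act mainly through Smad2 and Smad3, and BMPs through Smad1 and Smad5. In epidermis, TGF-beta is known to slow keratinocyte division, activin to promote wound repair, and BMPs to act in differentiation and the hair cycle. Secreted antagonists such as follistatin and noggin bind ligands before they reach a receptor.

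Signals are MAS5 intensities on a linear scale. A floor of 67.7, the median over both arrays, replaced all lower values before ratios were taken. Where 1 array lay below it, the ratio is a bound. Of the 38 genes, 33 reached the floor on at least 1 array by the probe set used, that with the highest mean signal. Bmp4 did so on the control array alone. The other 5 were below the floor on both arrays. The only measurable spread, among probe sets that read 1 gene, had a pooled SD of 0.31 log2 units (1.24-fold) over 4916 genes. It does not cover differences between cultures.

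Checks of the labels came first. Med1 read 1039 on the array labelled MED1-null and 462.7 on the control array, so it was 2.24-fold higher where a null label would lead one to look for less. Of 7 Med1 probe sets, 6 were measured, and all 6 were higher, with log2 ratios from 0.55 to 1.57, against the label. The deleted part of the gene is not given in the labels, and a probe set outside it checks nothing about the deletion. The array is therefore named by its label throughout. Xist, the RNA of the inactive X chromosome, read 55.7 against 5461, and the Y-linked Eif2s3y read 2164 against 4.2. Sex-linked transcripts thus differed together with the label, and their part in the results below cannot be told apart from that of genotype. Keratinocyte markers read far above the floor in both cultures: Krt14 read 36849 on the array labelled MED1-null and 32905 on the control array, Krt5 32220 against 26821 and Itga6 29781 against 25412. Krt1, a keratin of differentiating cells, was below the floor on both, and 7 of 8 keratinocyte markers were measured, all within 2-fold. Melanocyte markers were also present in both, with Tyrp1 at 6715 against 9346, Dct at 6584 against 7568 and Pmel at 2946 against 4062, and all 9 were measured.

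Of the 33 measured pathway genes, 4 (12.1%) had a ratio of at least 2 in favour of the array labelled MED1-null, where 1.63% of all 11621 measured genes had one. Lower by at least that factor were 2 (6.06%), against a background of 2.23%. The list was chosen with earlier results of these data known, so these shares describe it and measure no excess over the background. The 4 higher genes were Cd109, Tgfbi, Ccn1 and Fst, and the 2 lower genes Inhbb and Fstl1. At 1.5-fold, the higher count stayed at 4 (background 7.80%) and the lower count was 4 (background 7.32%), with Ccn2 and Id2 added. The other 25 genes, 75.8% of those measured, differed by less than 1.5-fold, a share that was 84.9% over all measured genes. The median log2 ratio, the array labelled MED1-null over control, was 0.18 over the 33 genes and 0.06 over all measured genes, and 22 of the 33 lay above the median of all genes. Of the 33, 23 (69.7%) had a log2 ratio above 0, as had 57.1% of all measured genes. By role, the 6 genes past 2-fold were 1 ligand, 3 antagonists and 2 targets, and none of the 16 measured receptor and SMAD genes differed by 1.5-fold in the probe set used.

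**Figure D1:**
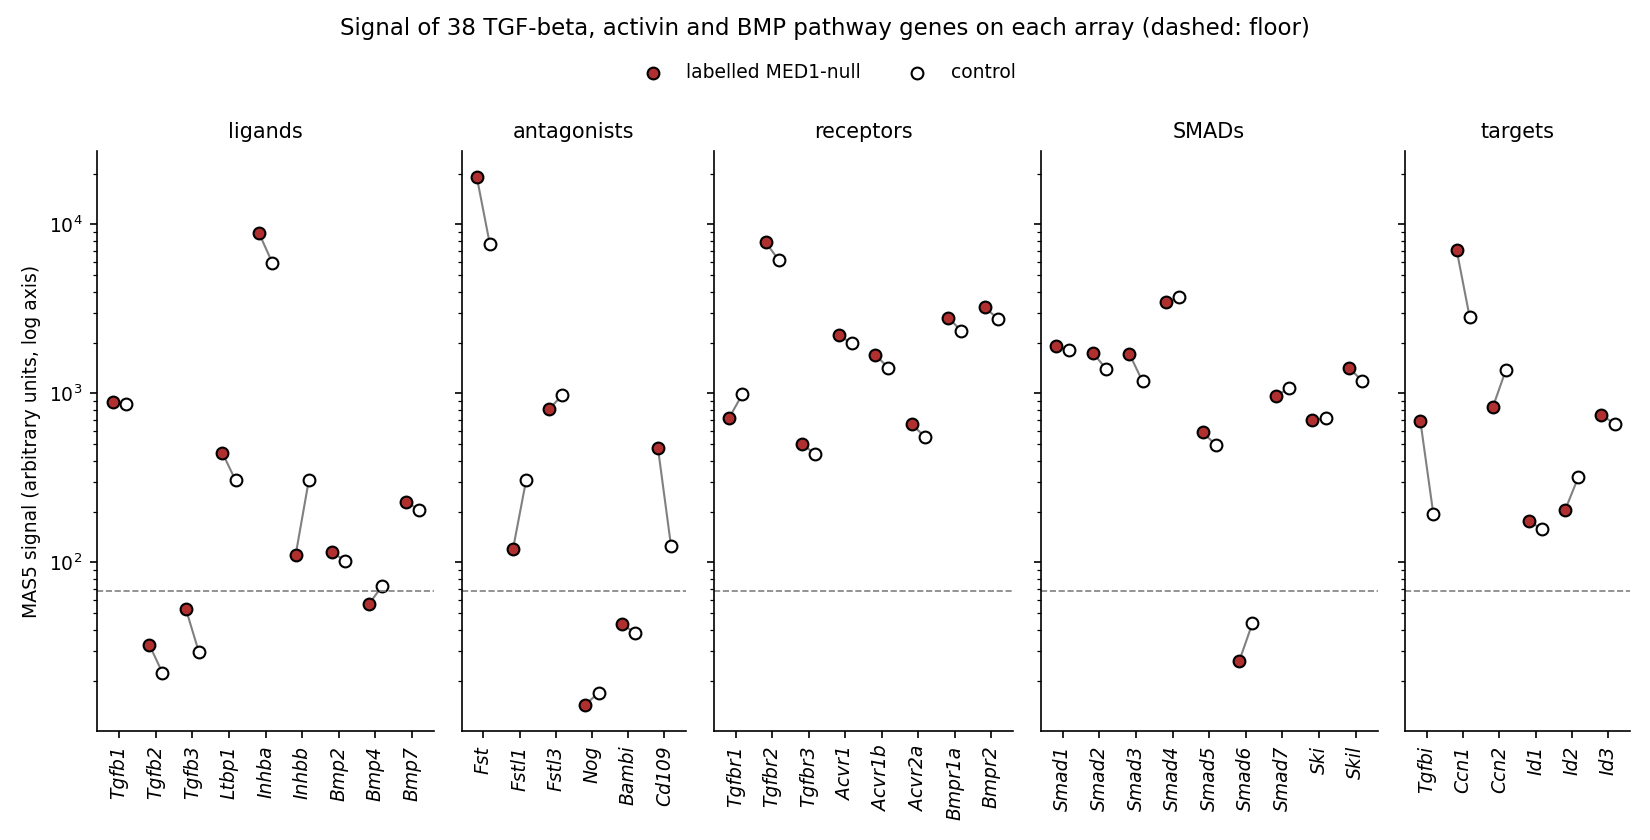
Signal of the probe set used for each of the 38 genes, on a log axis in arbitrary MAS5 units, by role. Filled points are the array labelled MED1-null, open points the control array, lines join the same gene, and the dashed line is the floor of 67.7. Heights compare the 2 arrays within a gene and not 1 gene with another. Cd109, Tgfbi, Ccn1 and Fst have the filled point far above the open one, Inhbb and Fstl1 far below, and Tgfb2, Tgfb3, Nog, Bambi and Smad6 lie under the floor on both arrays.

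For the genes past 2-fold, the bases just before the annotated start are shown so that sequence elements linked to the pathway can be seen beside the values. RefSeq promoters of build GRCm38.p6 were found for 4 of the 6, and Fst and Cd109 had no entry in the table used. Each line gives 250 bases, 5′ to 3′ on the gene's own strand, ending 1 base before the start. Capitals mark matches on either strand to CAGAC (the core SMAD-binding element, GTCTG on the other strand), GGCGCC (a GC-rich element bound by BMP SMADs), TGANTCA (AP-1) or GGAATG (TEAD, CATTCC on the other strand). No matches overlap. Tgfbi and Ccn1 were higher and Inhbb and Fstl1 lower on the array labelled MED1-null. Tgfbi lies at chr13:56609336-56609585, plus strand, Ccn1 at chr3:145649986-145650235, minus strand, Inhbb at chr1:119422249-119422498, minus strand, and Fstl1 at chr16:37776805-37777054, plus strand.
Tgfbi: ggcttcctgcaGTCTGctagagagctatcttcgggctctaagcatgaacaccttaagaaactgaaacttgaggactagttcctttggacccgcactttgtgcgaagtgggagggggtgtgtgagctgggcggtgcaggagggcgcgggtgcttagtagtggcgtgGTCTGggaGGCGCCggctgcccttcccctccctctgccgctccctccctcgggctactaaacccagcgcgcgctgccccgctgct
Ccn1: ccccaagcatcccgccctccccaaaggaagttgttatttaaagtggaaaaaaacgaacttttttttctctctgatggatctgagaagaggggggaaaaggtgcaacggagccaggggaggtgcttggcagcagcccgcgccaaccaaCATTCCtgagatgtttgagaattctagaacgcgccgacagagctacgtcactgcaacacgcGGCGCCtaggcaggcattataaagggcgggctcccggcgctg
Inhbb: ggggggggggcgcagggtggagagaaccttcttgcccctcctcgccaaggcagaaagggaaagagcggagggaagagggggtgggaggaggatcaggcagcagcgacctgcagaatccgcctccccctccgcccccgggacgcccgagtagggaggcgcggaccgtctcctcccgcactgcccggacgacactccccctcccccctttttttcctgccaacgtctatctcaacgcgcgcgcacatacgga
Fstl1: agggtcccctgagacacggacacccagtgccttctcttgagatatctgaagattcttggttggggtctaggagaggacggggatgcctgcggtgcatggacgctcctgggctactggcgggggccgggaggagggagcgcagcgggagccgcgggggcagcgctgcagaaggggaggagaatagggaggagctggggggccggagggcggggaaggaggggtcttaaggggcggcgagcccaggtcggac

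The Tgfbi window held 2 CAGAC matches, beginning 239 and 85 bases before the start, and 1 GGCGCC match at 77 bases. The Ccn1 window held 1 GGCGCC match at 42 bases and 1 GGAATG match at 103 bases. The windows of Inhbb and Fstl1 held none of the 4 motifs. Over all 32851 promoters of the table, windows of the same length held CAGAC in 42.2%, GGCGCC in 9.59%, TGANTCA in 6.75% and GGAATG in 12.6%. Promoters were found for 24 of the 38 pathway genes, 28 windows in all. Of these, 10 held CAGAC (35.7%), 8 GGCGCC (28.6%), 2 GGAATG (7.14%) and 0 TGANTCA. A match describes the letters and not a bound site.

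Among the ligands, the activin subunits differed in opposite directions and TGF-beta itself was little different. Inhba, the beta A subunit of activin A, read 8867 on the array labelled MED1-null and 5948 on the control array, 1.49-fold higher (log2 ratio 0.58) by its only measured probe set. Inhbb, the beta B subunit of activin B, read 110.9 against 306.8, 2.77-fold lower (log2 ratio -1.47), the 87th lowest ratio of the 11621 genes. Its second probe set read 51.2, below the floor, against 96.6, at least 1.43-fold lower. Both Inhbb probe sets thus pointed the same way, at signals within a few fold of the floor. Tgfb1 read 893.2 against 864.1 (log2 ratio 0.05), next to the all-gene median. Tgfb2 and Tgfb3 were below the floor on both arrays, with highest-signal probe sets at 32.7 against 22.3 and 53.2 against 29.4. Ltbp1, which tethers latent TGF-beta in the matrix, read 444.2 against 305.7, 1.45-fold higher.

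The 3 BMP ligands of the list read within a few fold of the floor in both cultures, and by the probe set used each had a log2 ratio between -0.10 and 0.17. Bmp7 read 229.0 on the array labelled MED1-null and 205.4 on the control array, 1.11-fold higher, but its 3 probe sets ran from 0.16 to 0.76 in log2 ratio, the last at 243.3 against 143.5, 1.70-fold higher. Bmp2 read 115.0 against 101.9. Bmp4 read 56.7, below the floor, against 72.4, barely above it. With Inhbb at 1 end, the 7 measured ligands had a median log2 ratio of 0.16, 5 above 0 and 2 below. Over all measured genes, 57.1% were above 0.

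The antagonists spanned the widest range of log2 ratios of any role. Fst, follistatin, which binds activin and blocks it, read 19025 on the array labelled MED1-null and 7632 on the control array, 2.49-fold higher (log2 ratio 1.32). Its second probe set read 15568 against 7582, 2.05-fold higher. Both Fst probe sets were thus past 2-fold, at signals far above the floor on both arrays. Cd109, a membrane-anchored TGF-beta co-receptor that restrains TGF-beta signalling in human keratinocytes, read 475.1 against 125.8, 3.78-fold higher (log2 ratio 1.92), the 9th highest ratio of the 11621 genes. Its second probe set read 333.3 against 161.6, 2.06-fold higher. The Cd109 probe sets agreed in direction and differed in size by more than the pooled spread between probe sets.

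Other antagonists did not share that direction. Fstl1, a secreted glycoprotein with a follistatin-like domain, read 120.5 on the array labelled MED1-null and 305.8 on the control array, 2.54-fold lower (log2 ratio -1.34). Its second probe set read 56.4, below the floor, against 157.1, at least 2.32-fold lower. Fstl3, which like follistatin binds activin, read 806.7 against 980.4, 1.22-fold lower. The BMP antagonist Nog, at 14.4 against 17.0, and the decoy receptor Bambi, at 43.2 against 38.4, were below the floor on both arrays. Follistatin and its relatives thus went different ways, and the median of the 4 measured antagonists, 0.52, describes none of them.

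**Figure D2:**
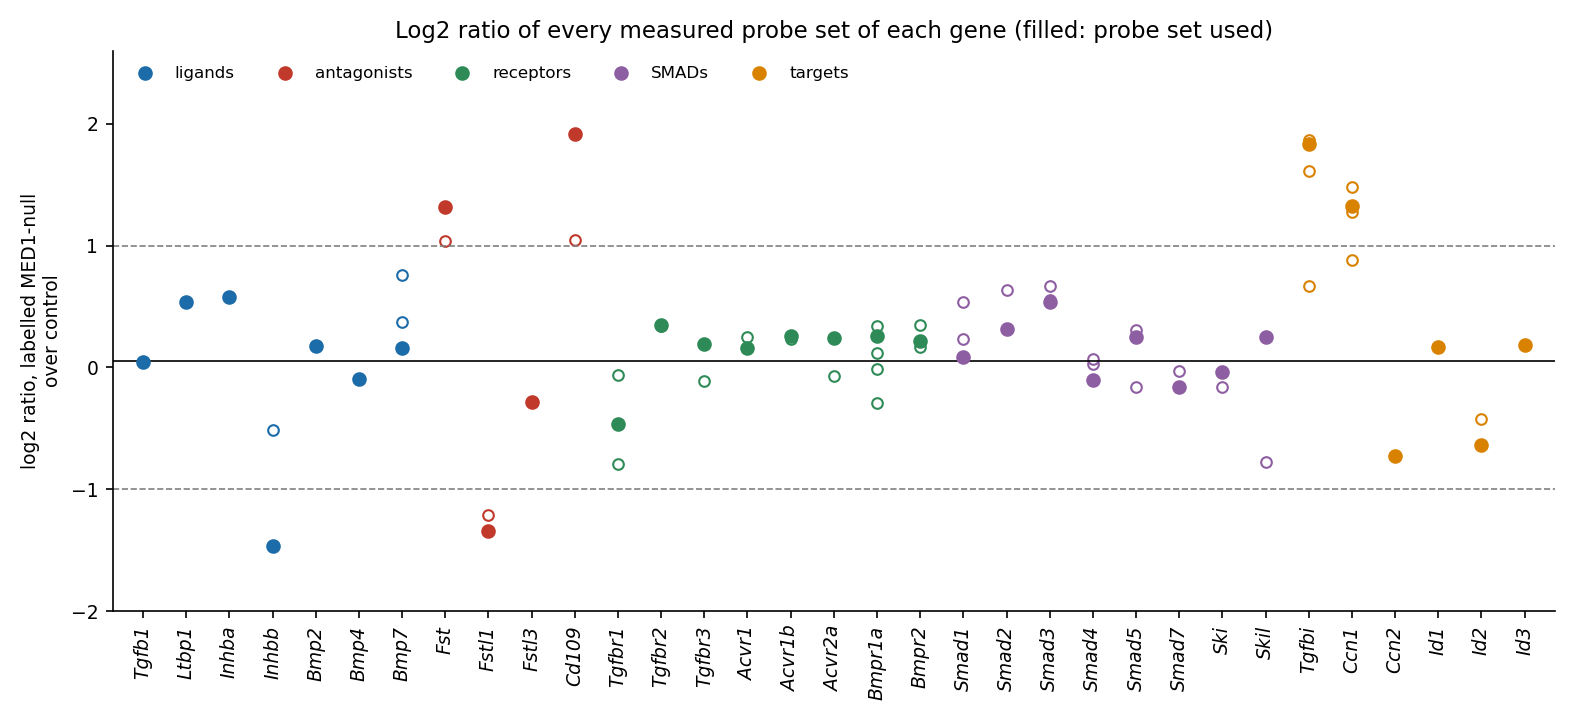
Log2 ratio, the array labelled MED1-null over control, of every probe set that reached the floor on either array, for the 33 measured genes by role. Filled points are the probe sets used, open points the other probe sets of the gene, dashed lines 2-fold, and the solid line the all-gene median of 0.06. The receptors and SMADs stay between the dashed lines, the 2 probe sets of Skil lie on opposite sides of 0, and all probe sets of Fst, Cd109, Tgfbi and Ccn1 lie above 0.

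All 8 receptor genes were measured and all lay within 1.5-fold, with a median log2 ratio of 0.23. Of the 8, 7 were above 0, as were 57.1% of all measured genes. The type I and type II receptors of TGF-beta differed in sign. Tgfbr2, the type II receptor that binds TGF-beta, read 7847 on the array labelled MED1-null and 6146 on the control array, 1.28-fold higher, with 2 measured probe sets at 0.34 and 0.35. Tgfbr1, the type I kinase ALK5, read 715.5 against 985.9, 1.38-fold lower, with 3 probe sets from -0.79 to -0.06. Tgfbr1 was the only receptor of the list below 0 by the probe set used. The co-receptor Tgfbr3, betaglycan, read 500.6 against 438.4, with probe sets on both sides of 0.

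Receptors of activin and BMP read slightly higher on the array labelled MED1-null. The activin type I receptor Acvr1b (ALK4) read 1698 against 1416 on the control array, and the type II receptor Acvr2a 656.4 against 555.4. Of the BMP receptors, Bmpr1a (ALK3) read 2811 against 2344, Bmpr2 3225 against 2771 and Acvr1 (ALK2) 2209 against 1982. These 5 genes were 1.11-fold to 1.20-fold higher, less than the spread between probe sets of a gene. Acvr2a and Bmpr1a had probe sets on both sides of 0.

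Among the SMADs, Smad3 and Smad2 stood farthest from 0, Smad3 first by the probe sets used. Smad2 came first (0.63 against 0.54) only when its brighter probe set, of suffix _a_at, was left out with the shared-sequence ones. Smad3, a receptor SMAD of TGF-beta and activin, read 1715 on the array labelled MED1-null and 1179 on the control array, 1.45-fold higher, with 3 probe sets from 0.54 to 0.67. Smad2, which shares its upstream receptors, read 1745 against 1400, 1.25-fold higher, and its second probe set 617.2 against 397.7, 1.55-fold higher. By the probe set used, the BMP SMADs were nearer to 0: Smad1 read 1910 against 1795 and Smad5 589.5 against 496.1. The 3 Smad1 probe sets, however, ran from 0.09 to 0.53, the last at 691.8 against 477.5, 1.45-fold higher. Smad5 had probe sets on both sides of 0. Smad4, the common partner of both branches, read 3452 against 3701, with probe sets from -0.10 to 0.07.

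Inhibitors within the SMAD group were near 0 as well. Smad7, an inhibitory SMAD that TGF-beta itself induces, read 963.5 on the array labelled MED1-null and 1076 on the control array, 1.12-fold lower, and Smad6, its counterpart for BMPs, was below the floor on both. The corepressor Ski read 696.4 against 713.8. Its relative Skil (SnoN) read 1413 against 1188 by the probe set used and 140.5 against 240.0 by the other, so no direction can be given for Skil. Of 24 pathway genes with several measured probe sets, 18 had all of them on the same side of 0 and 6 did not: Acvr2a, Bmpr1a, Skil, Smad4, Smad5 and Tgfbr3.

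The targets went both ways. Tgfbi, a matrix protein named for its induction by TGF-beta, read 685.9 on the array labelled MED1-null and 192.2 on the control array, 3.57-fold higher (log2 ratio 1.84), the 11th highest ratio of the 11621 genes. The other 3 Tgfbi probe sets read 537.7 against 175.4, 438.0 against 275.0, and 247.5 against 43.4, of which the last was below the floor on the control array. The probe set used has a suffix that marks sequence shared with other transcripts. The 1 Tgfbi probe set without such a suffix, 247.5 against 43.4, was at least 3.66-fold higher.

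Ccn1 and Ccn2, matricellular proteins that TGF-beta can induce but that also answer to YAP and serum, parted. Ccn1 (CYR61) read 7077 on the array labelled MED1-null and 2830 on the control array, 2.50-fold higher (log2 ratio 1.32), and its 4 probe sets ran from 0.88 to 1.48. The Ccn1 probe set used also has a shared-sequence suffix (_x_at). The 1 with none of the suffixes _s_at, _x_at and _a_at read 1237 against 444.1, 2.79-fold higher. The brighter probe set with the suffix _a_at read 4667 against 2532, 1.84-fold higher. Ccn2 (CTGF) read 829.6 against 1375, 1.66-fold lower (log2 ratio -0.73), by a single probe set. The Ccn1 probe sets all lay above 0 and that of Ccn2 well below it.

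The ID genes, helix-loop-helix inhibitors that BMP SMADs switch on directly, were also divided. Id1 read 175.9 on the array labelled MED1-null and 156.7 on the control array, and Id3 748.2 against 659.7, log2 ratios of 0.17 and 0.18. Id2 read 205.3 against 319.6, 1.56-fold lower, and its other measured probe set was 1.34-fold lower. The 6 targets had a median log2 ratio of 0.17, with Tgfbi and Ccn1 past 2-fold upward, 0 past it downward and 4 between. Over all measured genes, 1.63% were past 2-fold upward and 2.23% downward.

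**Figure D3:**
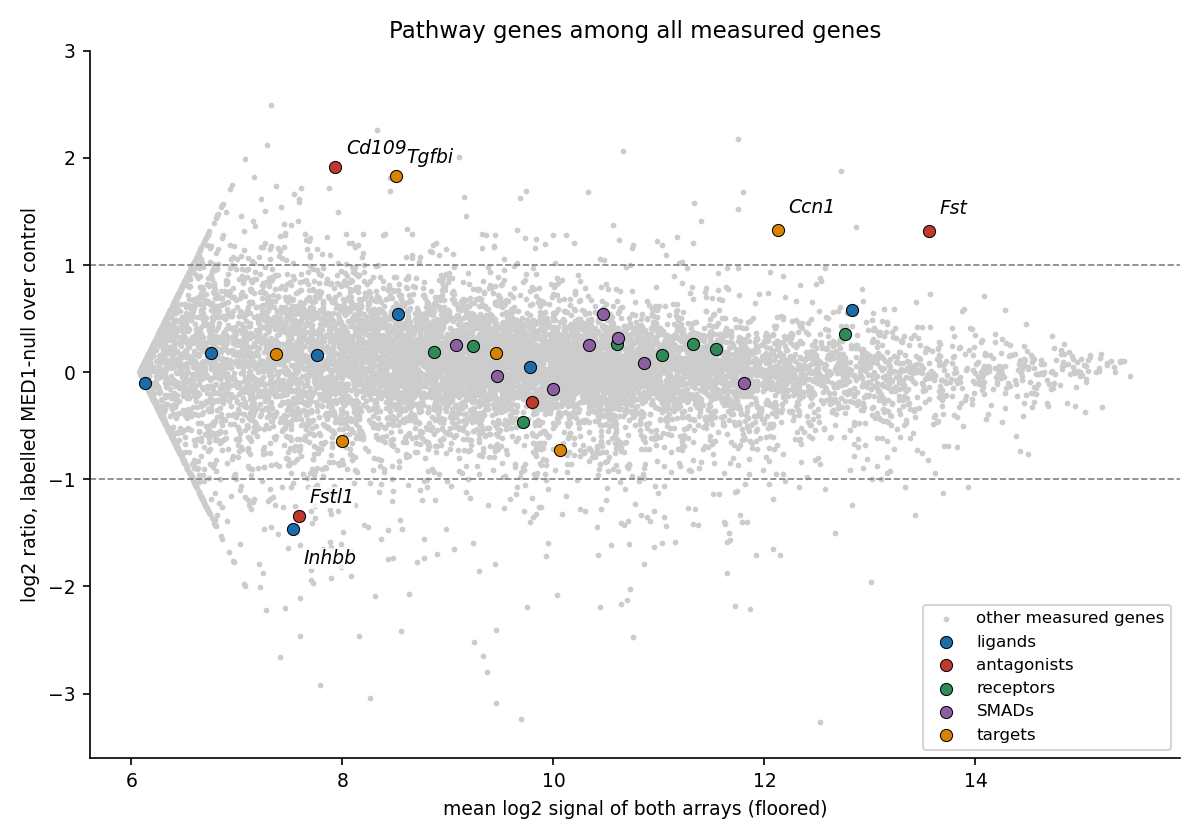
Log2 ratio, the array labelled MED1-null over control, against the mean floored log2 signal of both arrays for the 11621 measured genes (grey), with the 33 measured pathway genes coloured by role. Dashed lines mark 2-fold, 2 sex-linked genes lie outside the vertical axis, and the straight edges at the left come from the floor. The 6 labelled genes are those past 2-fold; Ccn1 and Fst are the 2 of them at high signal, and Inhbb and Fstl1 lie where the grey points spread most.

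A wider list of 87 other genes of the pathway, which excludes the 38, placed these values in context. Of them 78 had a probe set used here and 53 were measured. On the array labelled MED1-null, 2 of them were past 2-fold upward (3.77%, against the background of 1.63%) and 3 downward (5.66%, against 2.23%). The median log2 ratio of the 53 was -0.10, with 24 above 0 and 29 below. The share above 0 was 45.3%, against 57.1% over all measured genes. This list too was chosen with earlier results of these data known, so its shares are description only. Both higher genes act in the release of TGF-beta from its latent form. Thbs1, thrombospondin-1, read 2567 on the array labelled MED1-null and 1151 on the control array, 2.23-fold higher, with probe sets at 1.02 and 1.16. Itgb6, the beta subunit of the epithelial integrin that activates latent TGF-beta, read 3333 against 1641, 2.03-fold higher, with probe sets at 1.02 and 1.24.

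The 3 lower genes of the wider list were a BMP and 2 targets. Bmp6, a BMP of the upper epidermis, read 214.4 on the array labelled MED1-null and 439.5 on the control array, 2.05-fold lower by 1 probe set. Fn1, fibronectin, read 477.7 against 1150, 2.41-fold lower, with probe sets at -1.27 and -0.35. Tagln, the actin-binding protein transgelin, read 153.6 against 431.4, 2.81-fold lower. In the remaining roles the genes farthest from 0 were all lower. The BMP antagonist Grem1 read 89.4 against 176.6, 1.98-fold lower, and the activin receptor Acvr2b 19.5, below the floor, against 108.3, at least 1.60-fold lower. The ubiquitin ligase Nedd4l, which acts on phosphorylated SMADs, read 1607 against 2347, 1.46-fold lower, with probe sets from -0.55 to 0.03.

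**Figure D4:**
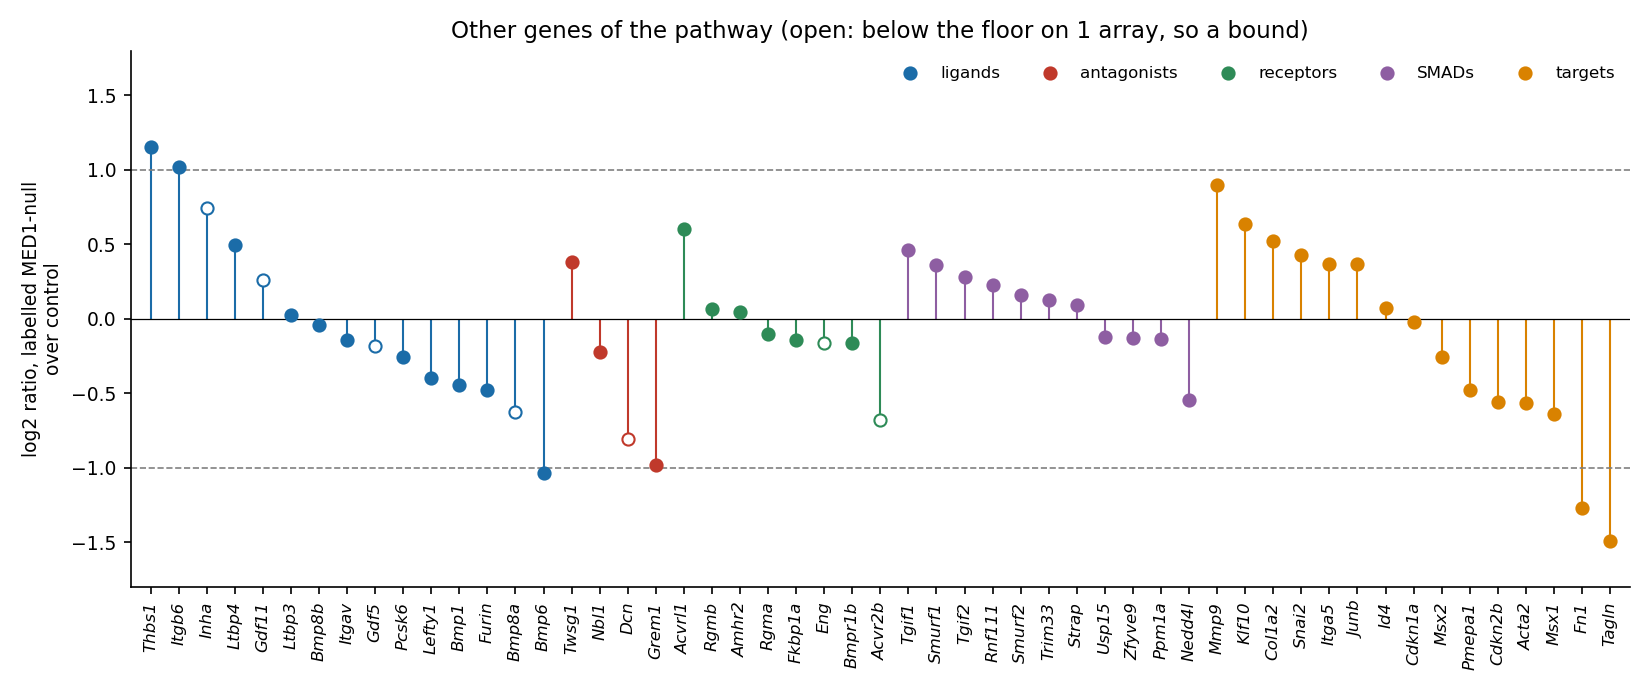
Log2 ratio, the array labelled MED1-null over control, of the 53 measured genes of the wider list, by role and ordered by ratio within each role. Open points are genes below the floor on 1 array, whose ratio is a bound, and dashed lines mark 2-fold. Thbs1 and Itgb6 lie above the upper dashed line, and Bmp6, Fn1 and Tagln below the lower one, while all 11 measured SMAD regulators lie between.

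Fibroblast markers moved with several of the lower genes. Of 11, 8 were measured, 2 at least 2-fold lower and 0 higher, with 7 of 8 below 0. The floored signals of the 8 summed to 2526 on the array labelled MED1-null and 5972 on the control array, at least 2.36-fold lower. Sparc and Vim carried most of that difference, and the other 6 summed to 512.3 against 661.5, at least 1.29-fold lower. Which cells gave the Sparc and Vim signals was not tested. Sparc read 1034 against 2709, Vim 979.7 against 2602 and Pdgfra 126.2 against 156.6. The 1 measured fibroblast marker above 0, named after its value was seen, was Col1a2. It read 115.3 against 80.3, 1.44-fold higher, by its only measured probe set. The collagen gene Col1a1 was below the floor on both arrays, as were Lum and Postn. Fstl1, Fn1, Tagln and Grem1 were lower, like most of these markers, while Tgfbi, Ccn1 and Thbs1 were higher. The part of fibroblasts in any of these values was not tested. In such bulk RNA, fewer cells of a type and less RNA per cell cannot be told apart. The wider list and the fibroblast markers share Col1a1, Col1a2 and Dcn. Of the 9 melanocyte markers, 7 were below 0, 2 (22.2%) at least 2-fold lower and 0 higher. The all-gene shares were again 2.23% lower and 1.63% higher. They summed to 20632 against 28536, 1.38-fold lower, and without Tyrp1 and Dct to 7333 against 11622, 1.58-fold lower. The 2 past 2-fold, named after their values were seen, were Gpnmb at 1125 against 3480 and Kit at 136.8 against 409.5. Each had 2 probe sets, with log2 ratios of -1.63 and -0.16 for Gpnmb and of -1.58 and -0.88 for Kit. The part of melanocytes in the pathway values was not tested. Endothelial, immune and Merkel cell markers were at or near the floor in both cultures, with Kdr at 51.6 against 80.5, Lyz2 at 121.5 against 104.0, Cd74 at 58.9 against 71.9 and Atoh1 at 80.1 against 52.9, and Pecam1, Ptprc and Krt20 below it on both arrays.

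The values of single genes depended little on scaling and more on the floor and the choice of probe set. Fst and Ccn1 were at least 2-fold higher under all 8 other ways of setting floor, scaling and probe set. Cd109 and Tgfbi were so under 7 of 8. With the floor at 434.6, the 75th percentile, their log2 ratios were 0.13 and 0.66, since both control signals lie below that floor. Fstl1 was past 2-fold in the 7 settings that measured it. Inhbb was past 2-fold in 6 of 7 and read -0.99 by the median of its 2 probe sets.

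**Figure D5:**
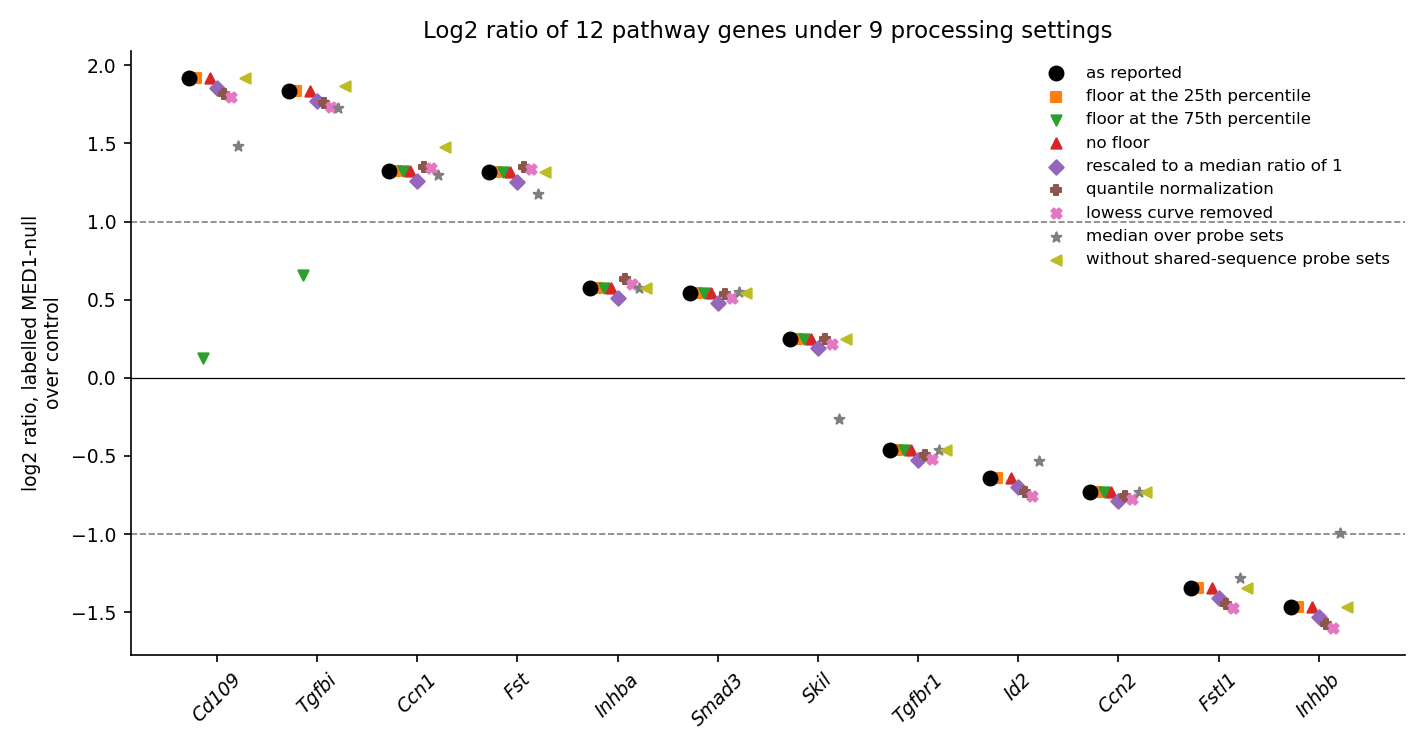
Log2 ratio, the array labelled MED1-null over control, of 12 pathway genes under 9 processing settings, with the values reported above as black circles and dashed lines at 2-fold. Fst and Ccn1 stay above the upper line in every setting shown, Cd109 and Tgfbi drop below it with the floor at the 75th percentile, and Skil changes sign when the median of its probe sets is taken.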

How the data were processed

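Gene expression was measured in 2 primary mouse keratinocyte cultures, 1 array each, with groups taken from the genotype labels. The deposited values are 1 signal intensity per probe set, made by the authors with MAS5 in GeneChip Operating Software on Affymetrix mouse expression arrays, per the labels and the submitters' processing notes. The software version is not given in the sources used here. The deposited intensities had been scaled by array to a trimmed mean of 500.004. Low MAS5 signals are noisy because mismatch signal is subtracted, hence the floor. Of 45101 probe sets, 64 are controls and 34945 have 1 symbol in GEO's platform annotation, updated by Entrez ID through RefSeq GRCm38.p6, which changed 0 symbols. The 1 probe set shared by Acvr2a and another gene was left out. Where a gene had several probe sets, the brightest on average stood for it.

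With 1 array per group, "called" means a ratio of at least 2, and precision is limited by the number of arrays. Pearson's r between arrays was 0.975 on the log2 scale over 20821 probe sets measured on each, across probe sets and not replicates. All pathway genes on the list were named. Of the wider list, genes past 2-fold and, in each role without one, the gene farthest from 0 were named, and up to 3 markers per cell type by signal. The members and lists were chosen with earlier results of these data known. Counting and rescaling were tested on simulated data. Alternatives were other floors, 3 rescalings, 2 other probe-set rules and 2 other thresholds. The rule without shared-sequence probe sets left out all with the suffix _s_at, _x_at or _a_at. Python 3.11.15, pandas 2.3.3, numpy 2.4.6, statsmodels 0.14.6 and matplotlib 3.10.9 were used.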

Additional observations from a re-analysis of the deposited data

How the results depend on the processing

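Without replicates, each value rests on 1 array per group, and signals near the floor are the least certain. No paired analysis was possible because each group has 1 array. Of 33 measured pathway genes, 30 kept the sign of their log2 ratio under every alternative of floor, scaling and probe set that measured them, and Tgfb1, Smad4 and Skil did not. All 8 such alternatives measured 26 of the 33, and the other 7 had a value in 6 or 7. Of 255 such values 7 differed from the reported one by more than the pooled probe-set SD, and 0 of the genes past 2-fold reversed. The counts of 4 higher and 2 lower of 33 pathway genes became 2 and 0 of 26 with the floor at the 75th percentile (background 0.70% and 1.52%). At a 3-fold threshold they were 2 and 0 of 33 (background 0.24% and 0.63%). At that floor the control signals of Cd109 and Tgfbi were raised to it, and Inhbb and Fstl1 were below it on both arrays. The lower count was 1 of 33 with the median over probe sets (background 1.91%) and 4 at a 1.5-fold threshold (background 7.32%). In the wider list, 2 higher and 3 lower of 53 measured genes became 6 and 8 of 72 with the floor at the 25th percentile (18.1). With no floor they became 11 and 11 of 78. The shares over all measured genes rose too, to 6.98% higher and 5.82% lower at the low floor and 12.2% and 10.4% with none. At 1.5-fold the wider list gave 6 and 8 of 53 (background 7.80% and 7.32%), and at 3-fold 0 and 0 (background 0.24% and 0.63%). Its higher count was 1 of 53 after rescaling to a median ratio of 1 (background 1.38%). Its lower count was 1 of 29 with the floor at the 75th percentile (background 1.52%). The median log2 ratio of the antagonists, 0.52, was 0.17, 0.13 and -0.035 with the floor at the 25th percentile, at the 75th and with no floor. The middle value is that of Cd109, whose control signal was raised to the floor, and the low floor and no floor admit further members. That of the targets was 0.83 over 4 genes without shared-sequence probe sets, against 0.17 over 6. Id1 and Id2 had no value in that setting. The median of all 33 genes was 0.12, 0.13 and 0.11 under the 3 rescalings, and that of the wider list, -0.10, was 0.07 with the higher floor. The share of lower calls among all measured genes past 2-fold also moved, from 259 of 449 to 303 of 464, 304 of 458 and 322 of 466 under the rescalings by median, quantiles and lowess. Other causes were not tested.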
